A study of Homo sapiens with 6 samples.

Results

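A set of 10 keratin genes was examined in T24 cells after silencing of TRIM28. They were KRT5, KRT7, KRT8, KRT14, KRT17, KRT18, KRT19, KRT20, KRT80 and KRT81, chosen by name, 10 of the 78932 genes in the deposited count table. Apart from KRT80 and KRT81, pathologists use them to place urothelial cells on the basal to luminal axis, or they belong to simple epithelia. T24 is an established urothelial carcinoma cell line. RNA was measured by poly(A)-selected sequencing in 6 libraries of it. Of these, 3 came from cells transfected with a control siRNA (siNC) and 3 from cells transfected with siRNA against TRIM28 (siTRIM28). The labels call them biological replicates of 1 batch, and whether all 6 came from separate cultures was not tested. All cultures were of the same line and were transfected with the same reagent, and which of the study's siRNAs against TRIM28 these cultures received is not given in the sources used here. The time of harvest after transfection is not given either.

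Keratins are the intermediate filament proteins of epithelial cells. A filament forms only when an acidic type I chain pairs with a basic or neutral type II chain, so the genes are used in partner sets. KRT8 (type II) and KRT18 (type I) are the pair of simple epithelia, with KRT7 and KRT19 as additional simple-epithelial chains. KRT5 (type II) and KRT14 (type I) are the pair of basal cells in stratified epithelia and mark basal urothelium, and KRT17 accompanies them in basal and activated epithelium. KRT20 marks the umbrella cells at the luminal surface of the urothelium. KRT81 is a hair keratin and KRT80 an epithelial keratin found near desmosomes and the cell margin.

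The stretch that encodes the start of the central helical rod, where the 2 chains of a dimer first coil around each other, shows how alike these genes are at the level at which reads are assigned. It is printed as 60 coding bases from GENCODE v29 transcripts (GRCh38) for KRT80 and KRT18, which had usable counts, and for 3 genes that were almost silent, KRT5, KRT14 and KRT19, with capitals for the bases that all 5 genes of the same type share. Within the type II genes 36 of the 60 bases were shared by all 5, and within the type I genes 34 of 60. The type II stretches join the end of one coding exon to the start of the next, and the type I stretches lie within the first exon.

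KRT80, type II, exons 1 and 2, chr12:52191603-52191635 and chr12:52185561-52185587, minus strand: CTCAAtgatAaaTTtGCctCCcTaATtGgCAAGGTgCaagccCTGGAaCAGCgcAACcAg
KRT5, type II, exons 1 and 2, chr12:52519742-52519774 and chr12:52519134-52519160, minus strand: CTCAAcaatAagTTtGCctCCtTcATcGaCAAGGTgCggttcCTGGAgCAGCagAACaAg
KRT18, type I, exon 1, chr12:52949432-52949491, plus strand: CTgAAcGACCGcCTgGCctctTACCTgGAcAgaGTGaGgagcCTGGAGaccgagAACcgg
KRT14, type I, exon 1, chr17:41586412-41586471, minus strand: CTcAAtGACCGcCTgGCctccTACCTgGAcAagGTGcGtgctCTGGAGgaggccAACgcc
KRT19, type I, exon 1, chr17:41527930-41527989, minus strand: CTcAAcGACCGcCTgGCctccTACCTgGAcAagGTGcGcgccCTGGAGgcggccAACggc

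Over whole coding sequences, identity between 2 of the type II genes ran from 67.8% to 77.7% in 10 pairs, and between 2 of the type I genes from 62.9% to 86.4% in 10 pairs. KRT14 and KRT17 were the most alike of the type I pairs, with a longest run of identical bases of 59.

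The 6 libraries held 12989362 to 13942383 counted reads in siNC and 11712623 to 14018052 in siTRIM28. Levels are given as CPM, reads scaled by TMM to a common library size, and levels of different genes are compared only per kilobase (RPKM, with the gene length of the count table). Differences are log2 fold changes of siTRIM28 against siNC. They and their adjusted p come from the quasi-likelihood test of edgeR, with the Benjamini-Hochberg method applied to all genes tested. A gene was tested when at least 3 libraries had at least 10 reads, and called when its adjusted p was under 0.05. In all, 18474 genes were tested and 7721 were called (41.8%), 3941 of them higher in siTRIM28 (21.3% of those tested), and in 9612 genes (52%) the values of the 2 groups did not overlap. TRIM28 itself fell from 103 ± 4.08 CPM in siNC to 8.84 ± 0.656 CPM in siTRIM28 (SD, n = 3 each). Its log2 fold change was -3.54 (SE 0.0722, adjusted p = 1.03e-10). The libraries within a group were not equally far apart. The chi-square statistic per degree of freedom was 1.08 between siNC replicates 1 and 2 and 1.24 between siTRIM28 replicates 2 and 3, against 4.59 to 6.99 for the other pairs, so results are also given with those close libraries summed, which leaves 2 samples per group. Cells of a given type and RNA per cell cannot be told apart in such bulk libraries.

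Within the set of 10, T24 cells in these libraries held reads mainly of the simple-epithelial pair KRT8 and KRT18, and almost none of KRT5, KRT14 and KRT17 or of KRT20. KRT8 and KRT18 held nearly all reads of the set, KRT7 and KRT80 were present at a small fraction of their level, and KRT5, KRT14, KRT17, KRT19, KRT20 and KRT81 stayed under the count minimum. Of the 4 keratins tested, KRT7 and KRT8 rose after TRIM28 silencing and KRT18 and KRT80 did not pass the test. That is 2 of 4, both higher, beside 41.8% called and 21.3% called higher among all genes. In 3 of the 4 (KRT7, KRT8 and KRT18) the groups did not overlap, beside 52% of all genes. The median log2 fold change of the 4 was 0.11, and that of all genes tested was 0.02.

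**Figure D1:**
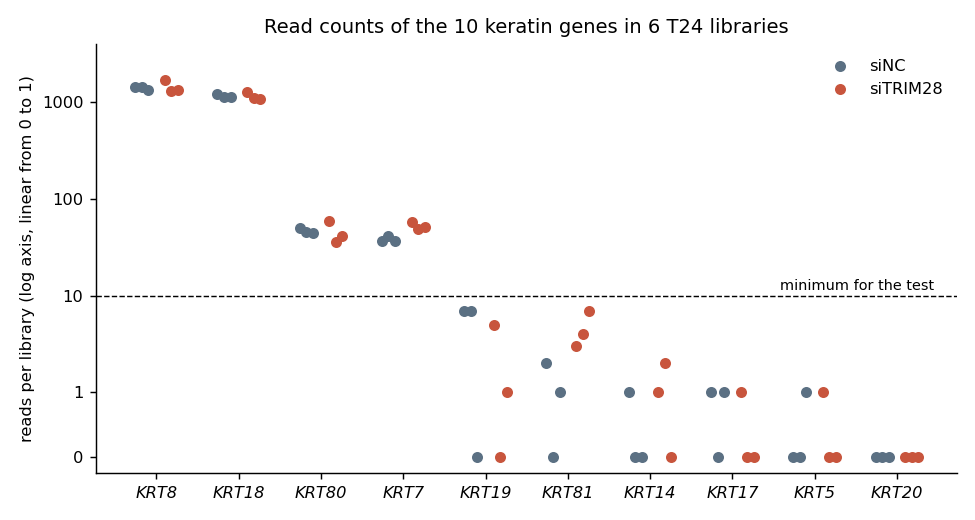
Reads per library (log axis, linear from 0 to 1) of the 10 keratin genes in 3 siNC and 3 siTRIM28 libraries, 1 point per library, ordered by total reads. KRT8 and KRT18 lie above 1000 reads in each library, KRT80 and KRT7 between 36 and 59, and the other 6 genes at 7 reads or fewer, under the minimum of 10 reads marked by the dashed line.

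KRT20, the umbrella-cell keratin, had 0 reads in each of the 6 libraries. A count of 0 allows up to 3 reads, or 0.214 to 0.256 CPM depending on the library. KRT5, the basal type II chain, had 1 read in siNC replicate 3, 1 in siTRIM28 replicate 1 and 0 in the other libraries. Its basal partner KRT14 had 1, 0 and 0 reads in siNC and 1, 2 and 0 in siTRIM28. KRT17 had 1, 0 and 1 reads in siNC and 1, 0 and 0 in siTRIM28. No level of these 4 keratins could be told from the limit that a count of 0 allows, and no difference between siNC and siTRIM28 was detectable at this depth.

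Of the 6 members under the count minimum, KRT19 and KRT81 had the most reads, 20 and 17 in all. KRT19, a type I chain that simple epithelia and urothelium usually make in quantity, had 7, 7 and 0 reads in siNC and 5, 0 and 1 in siTRIM28. The reads were unevenly spread, with siNC replicates 1 and 2 and siTRIM28 replicate 1 holding most of them in overlapping groups. The summed counts gave a siTRIM28 to siNC ratio of 0.46 with an exact 95% interval of 0.145 to 1.28, which covers counting error only. KRT81 had 2, 0 and 1 reads in siNC and 3, 4 and 7 in siTRIM28. All 3 siTRIM28 libraries were above all 3 siNC libraries, and the ratio of 14 to 3 reads was 5.01 (exact interval 1.40 to 27.2, counting error only). Without the count minimum the fitted adjusted p of KRT81 was 0.0524 over 46060 genes, so it was not called there either. KRT81 overlaps KRT86 on the opposite strand and the coding sequences were 94.2% identical with a shared run of 605 bases, so reads within that run could come from either gene. KRT86 had 1, 3 and 2 reads in siNC and 3, 6 and 4 in siTRIM28, and the part of cross-assignment in either gene's reads was not tested.

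KRT8, the main type II chain of simple epithelium (chromosome 12, positions 52897187 to 52949874 in the count table), was counted at 103, 103 and 104 CPM in siNC and 120, 109 and 112 CPM in siTRIM28. All siTRIM28 values lay above all siNC values, and siTRIM28 replicate 1 was the highest. The means were 103 ± 0.603 and 114 ± 5.37 CPM (SD, n = 3 each), and the log2 fold change was 0.14 (SE 0.0481, 95% interval 0.03 to 0.25, adjusted p = 0.0356), or 1.10-fold. This call was close to the threshold. It was lost when any of the 6 libraries except siTRIM28 replicate 2 was left out, with adjusted p between 0.0529 and 0.117 and a log2 fold change of 0.10 to 0.14 in those 5 fits. It was also lost in DESeq2 (adjusted p = 0.146), with the close libraries summed (adjusted p = 0.215), without the count minimum (adjusted p = 0.118) and with the reads of KRT8 pseudogenes added (adjusted p = 0.0562).

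KRT8 has many processed pseudogenes, which are intron-less copies elsewhere in the genome. The count table has 51 rows named as KRT8 pseudogenes, 36 of them with reads, and together they held 142 to 181 reads per library, equal to 9.82% to 12.6% of the reads of KRT8. Of the 3 that passed the count minimum, KRT8P12 on chromosome 3 held the most, with 101, 104 and 102 reads in siNC and 110, 88 and 74 in siTRIM28. It was not called (adjusted p = 0.665). Its sequence was 90.5% identical to the KRT8 coding sequence.

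KRT18, the type I partner of KRT8 (chromosome 12, positions 52948871 to 52952815), had 87.0, 81.4 and 89.0 CPM in siNC and 89.7, 93.0 and 90.1 CPM in siTRIM28. The lowest siTRIM28 library was just above the highest siNC library. The means were 85.8 ± 3.90 and 90.9 ± 1.82 CPM, a log2 fold change of 0.08 (SE 0.0507, 95% interval -0.03 to 0.20, adjusted p = 0.211). KRT18 was not called, and the interval reached from 0.981-fold to 1.14-fold. The 69 rows named as KRT18 pseudogenes held 22 to 32 reads per library, 1.95% to 2.90% of the reads of KRT18. KRT8 and KRT18 lie side by side on opposite strands and their spans share 1004 bases at the KRT8 start. The kit keeps strand, but whether the counting used it is not stated. An opposite-strand gene without a symbol overlaps KRT18 over 681 bases, with 54 to 101 reads per library (adjusted p = 0.945). Another overlaps KRT8 over 7898 bases, with 38 to 60 reads per library (adjusted p = 0.834). The part of opposite-strand reads in the KRT8 and KRT18 counts was not tested.

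Within each library, the ratio of KRT8 to KRT18 reads compares the pair without any scaling. It was 1.18, 1.27 and 1.17 in siNC and 1.33, 1.17 and 1.25 in siTRIM28. The groups overlapped, and the mean log2 ratio differed by 0.05 (two-sided exact permutation test over the 6 libraries, p = 0.6, where 0.1 is the smallest p this design can give). The highest and the lowest ratio in siTRIM28 came from replicates 1 and 2. A change of this ratio beside the small rise of KRT8 was not detectable in 3 against 3 libraries.

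KRT7, a type II chain of simple and glandular epithelia and of urothelium (chromosome 12, positions 52232520 to 52252186), showed the largest change of the tested members. Its levels were 2.66, 2.95 and 2.89 CPM in siNC and 4.13, 4.13 and 4.29 CPM in siTRIM28, from 37, 41 and 37 reads against 58, 49 and 51. The groups did not overlap. The spread within each group was small for so few reads, and in 3 libraries that is no measure of precision. The means were 2.83 ± 0.156 and 4.18 ± 0.0962 CPM, a log2 fold change of 0.56 (SE 0.155, 95% interval 0.22 to 0.90, adjusted p = 0.0126), or 1.47-fold. The call held when each library was left out in turn, with adjusted p between 0.0200 and 0.0459. It was lost in DESeq2, where the SE was larger (0.257, adjusted p = 0.0846), and with the close libraries summed (adjusted p = 0.0566). KRT7-AS, a transcript on the opposite strand that overlaps KRT7 over 2401 bases, had 21, 16 and 13 reads in siNC and 28, 19 and 19 in siTRIM28, a log2 fold change of 0.50 that was not called (adjusted p = 0.132). The part of antisense reads in the KRT7 count was not tested. KRT86 and KRT87P also overlap the span of KRT7, with at most 6 reads in any library.

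KRT80, a type II chain of the cell margin (chromosome 12, positions 52168996 to 52192000), had 3.59, 3.31 and 3.44 CPM in siNC and 4.20, 3.03 and 3.45 CPM in siTRIM28. The siTRIM28 libraries held both the highest and the lowest value. The means were 3.45 ± 0.139 and 3.56 ± 0.592 CPM, a log2 fold change of 0.06 (SE 0.173, 95% interval -0.32 to 0.44, adjusted p = 0.818). Without siTRIM28 replicate 1 the sign turned, to -0.09 (adjusted p = 0.755). With 36 to 59 reads per library, the interval reached from 0.8004-fold to 1.35-fold. LINC00592 overlaps KRT80 on the opposite strand over 23005 bases, with 2 to 7 reads per library.

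**Figure D2:**
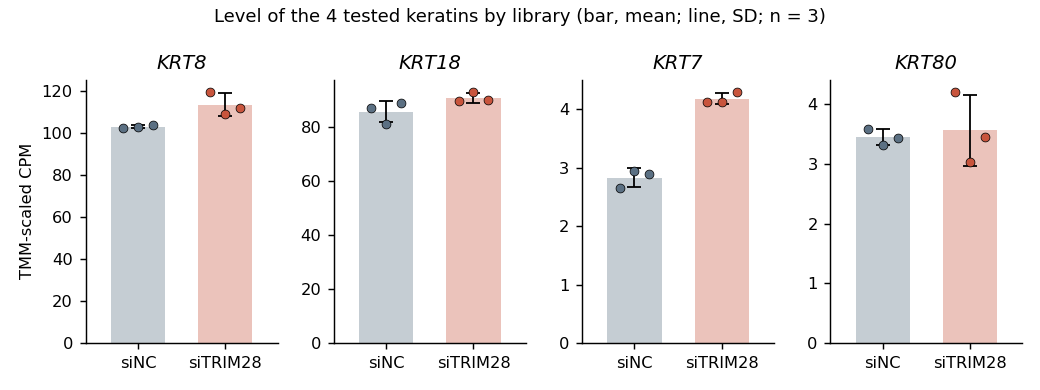
TMM-scaled CPM of KRT8, KRT18, KRT7 and KRT80 in siNC and siTRIM28, with 1 point per library, bars at the mean and lines of 1 SD (n = 3), each axis starting at 0. KRT7 shows separate groups (2.66 to 2.95 against 4.13 to 4.29 CPM), KRT8 and KRT18 separate by little, and KRT80 overlaps.

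Compared within a library, the ratios of KRT7 to the other 3 tested keratins were higher in each siTRIM28 library than in any siNC library. The mean log2 ratio of KRT7 to KRT8 reads was -5.19 ± 0.0742 in siNC and -4.76 ± 0.0807 in siTRIM28, a difference of 0.42. For KRT7 to KRT18 the difference was 0.48 and for KRT7 to KRT80 it was 0.53. Each of these had an exact two-sided permutation p of 0.1, the smallest possible with 3 against 3, and 0.2 after adjustment over the 6 pairs. The other pairs differed by 0.05 to 0.10 (exact permutation p of 0.5 to 0.7 before adjustment).

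Per kilobase, KRT18 was the highest of the set at 28.0 ± 1.27 RPKM in siNC and 29.6 ± 0.594 RPKM in siTRIM28, followed by KRT8 at 15.0 ± 0.0876 and 16.5 ± 0.781 RPKM. KRT18 thus stood 1.83 times above KRT8 on this scale over the 6 libraries. The gene length of KRT8 in the count table is 6881 bases because it joins the exons of all its transcripts, and with the length of 1 principal transcript per gene the same ratio was 1.11 (this length was chosen after the values were seen). On that second scale KRT18 ranged from 52.1 to 56.9 CPM per kilobase of transcript in siNC and KRT8 from 48.3 to 48.8. Next came KRT80 at 0.759 to 0.823 RPKM and KRT7 at 0.664 to 0.738 RPKM in siNC, a small gap in which the ranges did not meet. In siTRIM28 the order turned, with KRT7 at 1.03 to 1.07 RPKM and KRT80 at 0.695 to 0.962 RPKM. With transcript lengths KRT7 was above KRT80 in both groups (1.51 to 1.68 against 0.858 to 0.930 CPM per kilobase in siNC), so the order of these 2 genes in siNC depends on the length used. Of the summed RPKM of the set, KRT18 made up 59.7% to 63.5% and KRT8 32.9% to 35.5% over all 6 libraries. All shares given here rest on the gene lengths of the count table and were not computed with transcript lengths. KRT7 contributed 1.47% to 1.71% in siNC and 2.11% to 2.24% in siTRIM28. The sum itself was 43.3 to 45.7 RPKM in siNC and 47.9 to 48.9 RPKM in siTRIM28.

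Across the 6 libraries, the genes whose log2 CPM followed KRT7 most closely were LINC00887, STX3 and INPP5E, with Pearson r of 0.9996, 0.9994 and 0.9994 among 11340 named genes with a mean of at least 50 counts. KRT7 differed between the groups, and 1881 genes had r above 0.9 with it. For KRT18 they were ZNF692, ZNF169 and MSL1, with r of 0.994, 0.989 and 0.979, and 89 genes had r above 0.9. The 6 points share libraries and 2 treatments, so these are descriptions of 6 libraries.

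Of 45 other keratin genes, 23 had no read in any library and 5 passed the count minimum, of which 1 rose and 1 fell, with a median log2 fold change of 0.18. That is 40% of those tested, near the 41.8% of all genes. KRT79, a type II keratin of sebaceous and hair follicle duct cells, rose from 1.22, 0.864 and 0.391 CPM in siNC to 3.42, 3.20 and 2.95 CPM in siTRIM28. The groups were well apart, with a log2 fold change of 1.92 (SE 0.289, adjusted p = 0.000246), and the call held in all leave-outs. KRT79 had 17, 12 and 5 reads in siNC and 48, 38 and 35 in siTRIM28. The siNC libraries alone would not have met the count minimum, so its place among the tested keratins was favoured by that filter. KRT15, a type I keratin of basal keratinocytes and stem cells, was lower at 33.2, 34.8 and 34.6 CPM in siTRIM28 against 37.8, 39.3 and 38.5 CPM in siNC, a log2 fold change of -0.17 (SE 0.0585, adjusted p = 0.0332). Its call was lost without siNC replicate 1, 2 or 3 and without siTRIM28 replicate 1 or 3, with adjusted p of 0.0512 to 0.0956. At 6.46 ± 0.130 RPKM in siNC, KRT15 was below KRT18 and KRT8 and above each of the other keratins examined. In siTRIM28 its mean of 5.73 ± 0.140 RPKM was under that of KRT10 (6.49 ± 0.994 RPKM), with overlapping values. The gene length of KRT15 in the count table is 5969 bases, and no other length was tried for it.

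The other 3 tested keratins were not called. KRT82, a hair cuticle keratin, had 11.6, 10.7 and 13.2 CPM in siNC and 8.19, 14.7 and 15.6 CPM in siTRIM28, where replicate 1 stood apart from the other two, and without that library it was called at 0.36 (adjusted p = 0.00395). KRT10, the type I chain of differentiating epidermis, had 12.9, 12.5 and 11.8 CPM in siNC and 14.7, 11.6 and 15.7 CPM in siTRIM28, and was called without siTRIM28 replicate 2 (0.29, adjusted p = 0.0276). KRT32, another hair keratin, had a log2 fold change of 0.42 at about 1 CPM (adjusted p = 0.333).

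**Figure D3:**
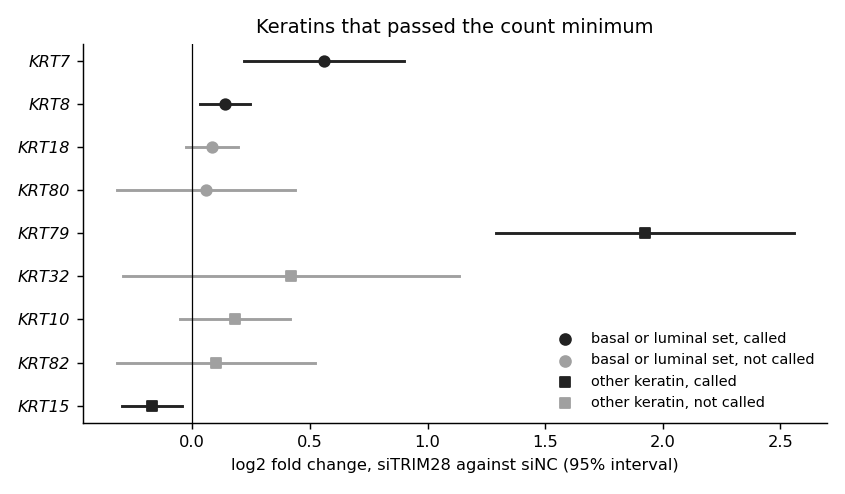
Log2 fold change of siTRIM28 against siNC with its 95% interval for the 9 keratins that passed the count minimum, circles for the basal and luminal set, squares for other keratins, black where the adjusted p was under 0.05. The intervals of KRT7, KRT8, KRT79 and KRT15 do not include 0, that of KRT18 reaches from -0.03 to 0.20, and KRT79 has the largest change.

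Of 18 desmosome and plakin genes, which anchor or cross-link intermediate filaments, 9 were tested, 6 rose and 1 fell, with a median log2 fold change of 0.36, beside 41.8% called, 21.3% called higher and a median of 0.02 among all genes. DSP, which encodes desmoplakin, the link between desmosome and keratin, had 7.42 CPM in siNC and 14.3 CPM in siTRIM28, up by 0.95 (adjusted p = 1.56e-05). DSG2, a desmosomal cadherin of simple epithelia, rose by 0.44 and DST, a plakin of hemidesmosomes and the cytoskeleton, by 0.43. JUP (plakoglobin) rose by 1.26 at under 1.1 CPM, from 2, 7 and 6 reads in siNC to 12, 12 and 10 in siTRIM28. It reached the count minimum only through siTRIM28, so its place among the 6 that rose was favoured by that filter. Only 3 leave-outs gave a value for JUP. Its call was lost without siNC replicate 1 (0.87, adjusted p = 0.114), in DESeq2 (adjusted p = 0.110) and with the close libraries summed (adjusted p = 0.0508). The 1 gene that fell was PKP4, a plakophilin relative at cell junctions, at -0.34, named after its values were seen. PKP3 (0.03) and DSC2 (0.25) did not pass. Of 8 genes described as organising or binding keratin filaments, 6 were tested, 3 rose and 1 fell (median 0.13, beside 41.8% of all genes called and 21.3% called higher). They were PNN (pinin) at 0.61, CSNK1A1 at 0.25, TCHP (trichoplein) at 0.21 and FBF1 at -0.39, the last lost without siNC replicate 2 (adjusted p = 0.0595), while HSPB1 (0.04) and TRADD (-0.26) did not pass. HSPB1 was called without siTRIM28 replicate 1, at 0.16 (adjusted p = 0.00563).

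Markers of basal and of luminal urothelium other than keratins moved in both directions. Of 11 basal markers 9 were tested, 4 rose and 2 fell, with a median log2 fold change of 0.70, beside 41.8% called, 21.3% called higher and a median of 0.02 among all genes. Those that rose included the laminin chains LAMB3 (0.80) and LAMA3 (0.71) and the hemidesmosome collagen COL17A1 (0.70). LAMA3, at under 2.4 CPM, lost its call without any 1 of the 6 libraries (adjusted p of 0.0513 to 0.142). CD44, the hyaluronan receptor, fell by 0.72 from 715 to 434 CPM and EGFR fell by 0.22. TP63, the transcription factor of basal cells, lay at 0.288 to 0.646 CPM in siNC and 0.783 to 1.26 CPM in siTRIM28. It was just outside the threshold (adjusted p = 0.05002). TP63 reached the count minimum only through siTRIM28 (11, 15 and 10 reads, against 9, 4 and 6 in siNC), and its value enters the median of 0.70. Only 3 leave-outs gave a value for TP63. It was called without siNC replicate 1, its highest siNC library (1.32, adjusted p = 0.0413). ITGA6, the basal integrin chain, was at 0.02.

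Of 19 luminal and epithelial markers, 6 were tested, 1 rose and 1 fell (median 0.25). That is 33.3% of those tested, beside 41.8% of all genes. UPK1A, a uroplakin of umbrella cells, had 0.871 CPM in siNC and 3.40 CPM in siTRIM28, up by 1.94 (adjusted p = 0.000549), and ERBB2, a receptor tyrosine kinase, fell by 0.65. UPK1A had 17, 15 and 4 reads in siNC and 58, 38 and 34 in siTRIM28. The siNC libraries alone would not have met the count minimum for UPK1A, and its value enters the median of 0.25. PPARG (0.07) and ERBB3 (0.43, adjusted p = 0.0623) did not pass, and ERBB3 was called without siNC replicate 2 (0.62, adjusted p = 0.0196). UPK1B and CLDN3 had 0 reads in all libraries, CDH1 (E-cadherin) had at most 2 and EPCAM at most 6 in any library, so several defining epithelial genes of a urothelial line were absent or nearly so here, as were KRT5, KRT14 and KRT20.

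Beside keratins, the libraries held abundant vimentin, the type III filament protein of mesenchymal cells. VIM, named after its values were seen, was at 212 RPKM in siNC and 267 RPKM in siTRIM28, a log2 fold change of 0.33 (adjusted p = 2.56e-05), against 15.0 and 16.5 RPKM for KRT8. Of 16 intermediate filament genes other than keratins, 8 were tested, 5 rose and 2 fell (median 0.31, beside 41.8% of all genes called and 21.3% called higher), with NEFL (neurofilament light, 1.25) and BFSP1 (a lens filament protein, 1.22) the highest and LMNB2 (lamin B2, -0.83) and SYNC (syncoilin, -0.48) lower. SYNM (synemin) was at 0.05 and did not pass. Of 16 markers of immune, endothelial, fibroblast, muscle, blood or liver cells, 3 passed the count minimum (median 0.01). CD3E and CDH5 had 0 reads in all libraries. The summed level of the 15 markers other than CD68 was 9.22 to 9.84 CPM in siNC and 8.69 to 10.5 CPM in siTRIM28. COL1A1 rose by 1.78 on the log2 scale, from 0.929 to 3.27 CPM, and ACTA2 fell by 0.56, and CD68, a lysosomal protein that many cell lines make, was at 0.01. COL1A1 had 17, 12 and 9 reads in siNC and 36, 41 and 45 in siTRIM28, so siNC alone would not have met the count minimum.

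**Figure D4:**
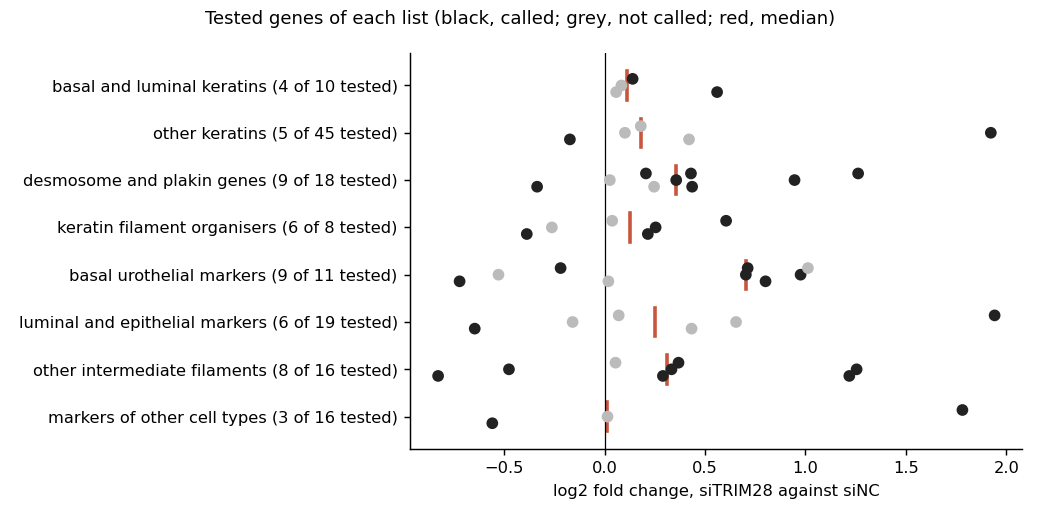
Log2 fold change of siTRIM28 against siNC for each tested gene of the 8 lists, black where called, grey where not, with a red line at the median of the tested genes. The 4 tested keratins of the set lie between 0.06 and 0.56, and the desmosome and plakin list has a median of 0.36 with PKP4 at -0.34.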

How the data were processed

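RNA-seq of T24 cells gave 6 libraries, 3 siNC and 3 siTRIM28. Per the submitters' processing notes the tools were fastp 0.23.1, STAR 2.7.6a and featureCounts with GRCh38. The annotation release, the use of strand and the treatment of molecular identifiers, duplicates and multiply mapped reads are not given in the sources used here. The authors deposited raw read counts per gene, and these were used as they are. They also deposited RPKM values of 1092 genes they selected, which were not used. The gene coordinates printed are those of the count table, except the sequence positions, which come from GENCODE v29. The table's span of KRT20 ends inside the first coding exon of that release.

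Counts were tested with edgeR 4.0.16 (limma 3.58.1, R 4.3.3), TMM factors, glmQLFit and glmQLFTest with treatment as the only term, in genes that reached 10 counts in 3 or more libraries, and p-values were adjusted by Benjamini-Hochberg over all 18474 genes. Standard errors and 95% intervals come from that fit. In simulated siTRIM28 against siNC libraries of these 18474 genes, 74.5% of 200 genes with a log2 change of 0.8 were recovered. There were 21 false calls beside the 149 recovered. The simulated libraries were independent, without close pairs, and few genes changed, against 41.8% called in the data. The simulation therefore does not give the power for the keratin changes of 0.06 to 0.56, nor the rate of false calls in the data. Intervals of ratios of summed reads are exact (Clopper-Pearson) and, like the limit of 3 counts for a gene at 0, cover counting error only. The p-values measure the spread between libraries of 1 cell line that the labels call biological replicates. Whether the close libraries came from independent cultures was not tested. If they did not, the p-values of the main fit are too small. Alternatives were other scalings, DESeq2 1.42.0, limma-voom, other count minimums, stricter thresholds, each library left out, the replicate number as a block, close libraries summed and pseudogene reads added. The members and gene lists were chosen with earlier results of these data known. Named genes were the 10 members, each other keratin tested and, per list, up to 4 called genes with the largest change and up to 2 uncalled ones with the highest mean count. For KRT18 and KRT7, the highest member and the called member with the largest change, the 3 most correlated genes were named. The planned ratio of KRT7 to KRT19 was not computed because KRT19 did not pass the count minimum. Sequences were aligned with Biopython 1.88, and plots drawn with matplotlib 3.10.9. Some sequences and 1 listed gene are not reported here.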

Additional observations from a re-analysis of the deposited data

How the results depend on the processing

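Of the 4 keratin calls, that of KRT79 held under all 14 alternatives that gave a value, and those of KRT7, KRT8 and KRT15 did not. KRT79 gave no value with at least 10 counts required in every library, because it dropped out of the test there. Of the 2 member keratins called, 0 were called with DESeq2, with the close libraries summed, at adjusted p under 0.01 or with a log2 fold change of at least 0.58 required as well, 1 without the count minimum, and 1 to 2 when a library was left out. At an unadjusted p under 0.05, 1 member (KRT7) remained in DESeq2 and with the close libraries summed, and limma-voom called 2. Of the other keratins, 2 in the main fit, 1 was called with upper-quartile scaling, with total-count scaling, with DESeq2, without the count minimum, with at least 10 counts in every library, with the close libraries summed, at adjusted p under 0.01 and with the log2 fold change of 0.58, and 1 to 3 when a library was left out. Requiring 0.58 also left 3143 of the 7721 genes, 2 of 7 desmosome and plakin genes and 3 of 7 other intermediate filament genes. The luminal and epithelial markers called were 4 in place of 2 with upper-quartile scaling and with limma-voom. Upper-quartile scaling raised the share of higher calls from 51.0% to 56.6%, and 45.9% were higher with the close libraries summed. DESeq2 called 5878 genes, and MACF1, CSNK1A1, TCHP, JUP and LAMA3 were not called with the close libraries summed. TRIM28 stayed between -3.58 and -3.49 and KRT7 between 0.51 and 0.59 under the alternatives run. The sign turned only in genes that were not called, and the cause was not tested. With a library left out these were KRT80 (-0.088 to 0.15), KRT82 (-0.070 to 0.36), PKP3 (-0.14 to 0.15), HSPB1 (-0.058 to 0.16), ITGA6 (-0.0050 to 0.048), PPARG (-0.012 to 0.18) and CD68 (-0.013 to 0.044). With the close libraries summed KRT82 was at -0.023, HSPB1 at -0.071, ITGA6 at -0.026, PPARG at -0.015 and CD68 at -0.028.

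No pairing of the cultures by replicate number was detected. The correlations of same-numbered libraries' deviations from their group means were 0.05, -0.01 and 0.04. With so few libraries, some of them close to each other, these values cannot exclude pairing. With the replicate block 7913 genes were called, 2 of the member keratins, 2 other keratins, 7 desmosome and plakin genes, 6 basal markers, 3 luminal markers and 7 other intermediate filament genes, TRIM28 was at -3.54 and the log2 ratio of KRT8 to KRT18 differed by 0.05. The 6 member keratins with under 10 reads per library were left out by the count minimum chosen, and the 36 to 59 reads of KRT7 and KRT80 leave wide intervals.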
